A study of Mus musculus with 8 samples.

Results

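The 39 genes described here are the mouse cytochrome P450 genes of families 1, 2 and 3 on a list of xenobiotic-metabolising enzymes, found by the gene symbol of the RefSeq accession that each array probe carries. Of these, 35 had a probe with such an accession and 32 were bright enough to be tested, out of 24921 genes or transcripts tested in all. The furan group had 4 liver samples, replicates 41, 42, 43 and 44, from female B6C3F1 mice (a hybrid strain) that were gavaged with furan in corn oil at 8 mg per kg of body weight. The vehicle group had 4 liver samples, replicates 2, 3, 4 and 6, from female B6C3F1 mice given corn oil alone. Mice of both groups were bought at 5 to 6 weeks of age, kept for at least 7 days before the start, dosed over 21 days and killed 4 hours after the last dose, and the livers were snap frozen. Furan is a small volatile compound that forms when food is heated and that is toxic to rodent liver. The series' design text calls the 4 samples of a group biological replicates, and does not say whether a sample holds 1 animal or a pool.

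Cytochrome P450 enzymes are heme proteins of the endoplasmic reticulum that add oxygen to drugs, plant compounds, steroids and fatty acids, with electrons that reach them through P450 reductase (Por) and cytochrome b5. Families 1 to 3 carry most of the oxidation of foreign compounds in liver. Ligand-activated factors set the level of many of these genes: AHR for Cyp1a1, Cyp1a2 and Cyp1b1, CAR (Nr1i3) for the Cyp2b genes, and PXR (Nr1i2) for the Cyp3a genes. Several members also differ by sex in mouse liver under growth hormone, among them Cyp3a16, Cyp3a41, Cyp3a44, Cyp2a4, Cyp2b9 and Cyp2b13, which predominate in females. Furan itself is oxidised by a liver cytochrome P450 to a reactive dialdehyde.

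Levels are given as log2 of the scanner software's processed intensity minus the 75th percentile of the same array, so 0 is the 75th percentile and a difference of 1 is a 2-fold difference in intensity. A difference is furan minus vehicle. A gene is called when its Benjamini-Hochberg adjusted p over all 24921 features in limma is under 0.05. Levels of different probes are not compared, since each probe has its own brightness. All 32 tested members were well above background on 4 of 4 arrays in the furan group and 4 of 4 in the vehicle group. The share of spots well above background was 55.8% to 69.4% on furan arrays and 55.1% to 86.2% on vehicle arrays, the highest being vehicle replicate 2, which stands apart. All 8 arrays lie on 1 slide, with 2 furan and 2 vehicle arrays in each of its 2 rows. In these pieces of whole liver, fewer cells of a type and less RNA per cell cannot be told apart.

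Of the 32 tested members, 1 rose with furan and 2 fell, while the other 29 did not pass the test. Cyp3a16, a female-predominant member of the Cyp3a cluster, was 1.95-fold higher in furan livers. Cyp2g1, known mainly from olfactory mucosa, was 2.26-fold lower, and Cyp2j5, an arachidonic acid epoxygenase of mouse liver and kidney, was 1.42-fold lower. Among all features 4.18% were called, 2.87% higher and 1.31% lower, against 9.38% of the members. The members' median log2 difference was -0.074, beside -0.092 over all features, with 13 members positive and 19 negative, a share below 0 of 59.4% beside 60.2% of all features. This depends on the scaling, since with quantile normalization the members' median was -0.089, beside 0.048 over all features, and 23 of 32 members lay below the median of all features. Groups did not overlap for 10 members (31.2%), 6 of them higher and 4 lower in furan livers, against 18.1% of all features (10.8% higher and 7.36% lower).

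**Figure D1:**
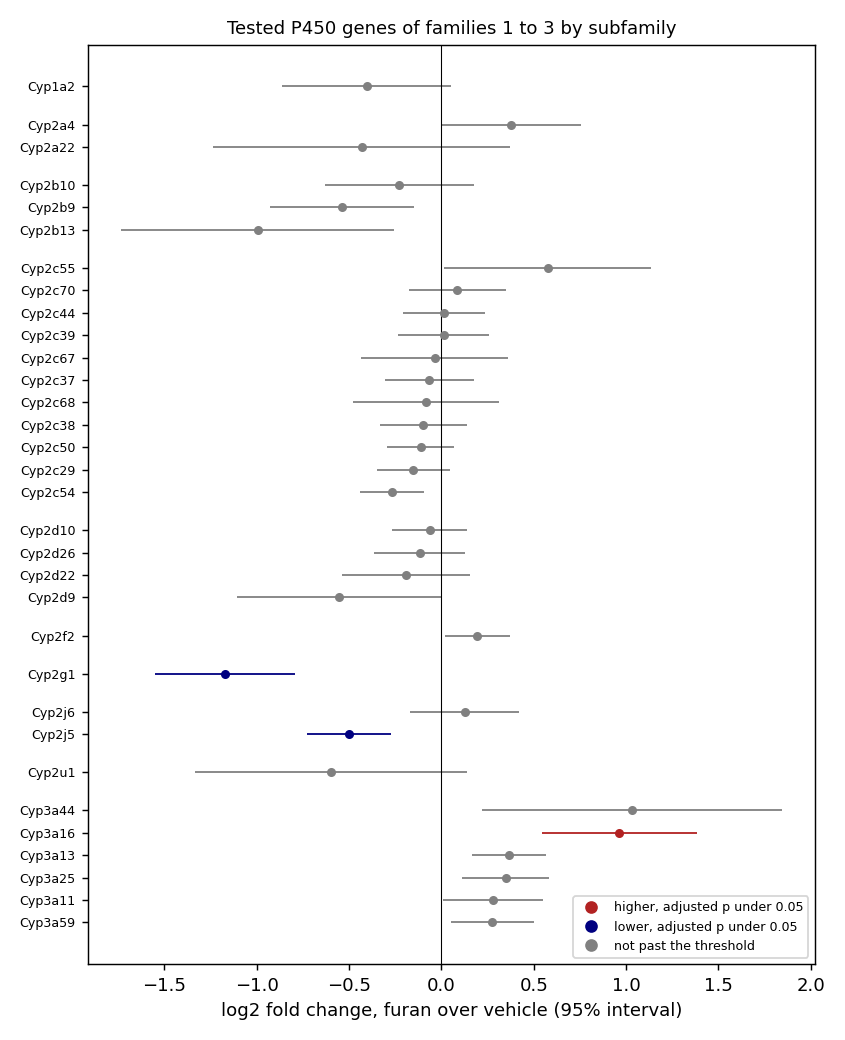
Log2 difference (furan minus vehicle, x axis) of each of the 32 tested members, grouped by subfamily, with 4 arrays a group. Points are limma estimates and bars their 95% intervals. The 6 Cyp3a genes all lie right of 0 and the 3 Cyp2b and 4 Cyp2d genes all lie left of it, and 3 members pass the adjusted threshold.

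The Cyp3a and Cyp2b subfamilies had differences of opposite sign, and the sequence before their start sites is shown so that close relatives within each cluster can be compared. Each stretch is the 250 bases before a start listed for the gene in RefSeq on build GRCm38.p6. It is written 5′ to 3′ on the gene's strand. For Cyp3a16, Cyp3a44, Cyp3a25, Cyp2b13 and Cyp2b9 the stretch lies partly inside the annotated gene, which for Cyp2b13 begins at 26061388. Capitals mark the hexamers AGGTCA and TGAACT on either strand (TGACCT and AGTTCA in reverse), the letters that nuclear receptors such as CAR and PXR are known to bind in pairs. On the minus strand of chromosome 5 lie chr5:145469724-145469973 (Cyp3a16), chr5:145805875-145806124 (Cyp3a44), chr5:145879855-145880104 (Cyp3a11) and chr5:146009619-146009868 (Cyp3a25, the first of 2 starts listed). On the plus strand of chromosome 7 lie chr7:26061245-26061494 (Cyp2b13), chr7:26173159-26173408 (Cyp2b9) and chr7:25897408-25897657 (Cyp2b10).
Cyp3a16: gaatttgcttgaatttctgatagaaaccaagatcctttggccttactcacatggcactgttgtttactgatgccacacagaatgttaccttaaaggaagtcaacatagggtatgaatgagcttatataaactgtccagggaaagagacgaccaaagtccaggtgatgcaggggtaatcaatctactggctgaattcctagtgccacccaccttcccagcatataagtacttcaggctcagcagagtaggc
Cyp3a44: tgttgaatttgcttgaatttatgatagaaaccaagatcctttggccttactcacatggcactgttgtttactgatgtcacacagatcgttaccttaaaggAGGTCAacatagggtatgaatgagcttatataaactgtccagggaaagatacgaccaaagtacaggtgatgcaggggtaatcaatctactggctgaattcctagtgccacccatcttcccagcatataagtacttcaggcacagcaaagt
Cyp3a11: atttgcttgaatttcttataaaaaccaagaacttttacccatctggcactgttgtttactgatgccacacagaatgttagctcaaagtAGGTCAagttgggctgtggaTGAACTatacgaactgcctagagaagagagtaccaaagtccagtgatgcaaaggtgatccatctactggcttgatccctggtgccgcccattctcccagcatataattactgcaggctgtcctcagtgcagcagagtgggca
Cyp3a25: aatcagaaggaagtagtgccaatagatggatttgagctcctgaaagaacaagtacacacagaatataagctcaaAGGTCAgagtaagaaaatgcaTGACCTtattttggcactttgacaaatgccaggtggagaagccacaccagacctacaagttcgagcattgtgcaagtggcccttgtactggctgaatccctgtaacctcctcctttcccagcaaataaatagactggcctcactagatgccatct
Cyp2b13: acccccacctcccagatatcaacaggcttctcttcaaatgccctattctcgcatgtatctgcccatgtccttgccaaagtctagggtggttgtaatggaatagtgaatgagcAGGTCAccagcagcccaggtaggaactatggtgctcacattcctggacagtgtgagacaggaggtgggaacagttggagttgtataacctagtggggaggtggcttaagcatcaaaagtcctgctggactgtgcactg
Cyp2b9: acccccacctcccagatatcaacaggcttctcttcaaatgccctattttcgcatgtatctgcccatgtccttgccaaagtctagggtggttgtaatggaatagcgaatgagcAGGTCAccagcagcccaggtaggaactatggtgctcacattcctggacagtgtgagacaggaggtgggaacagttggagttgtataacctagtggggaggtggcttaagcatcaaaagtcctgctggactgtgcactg
Cyp2b10: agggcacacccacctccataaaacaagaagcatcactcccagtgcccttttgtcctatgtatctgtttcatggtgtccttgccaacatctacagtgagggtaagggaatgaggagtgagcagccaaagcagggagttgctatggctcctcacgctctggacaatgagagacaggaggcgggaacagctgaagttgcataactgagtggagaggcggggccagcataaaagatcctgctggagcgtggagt

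The Cyp3a16 and Cyp3a44 stretches are 92.9% identical, whereas Cyp3a16 shares 76.6% with Cyp3a11 and 57.4% with Cyp3a25. Cyp2b13 and Cyp2b9 are 99.2% identical, and each shares 71.0% with Cyp2b10. Of the 34 members with a promoter in the table, 11 hold AGGTCA in either direction, beside 13.8% of the 27025 genes in the table, and 5 hold TGAACT, beside 11.9%, with 1 stretch of the same length for each gene, at its first listed start. The stretch of Cyp3a16, the one member that rose, holds neither hexamer, and the Cyp3a44 stretch holds 1 AGGTCA. Cyp3a41b, a neighbouring gene described below that is not on the list, also passed the adjusted test. Its stretch holds 1 TGAACT and 0 AGGTCA. Sequence farther from the starts was not searched, so hexamers there would have been missed. A match is a description of letters and not a binding site, and these shares were not tested.

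All 6 tested Cyp3a genes, which encode the broad steroid and drug hydroxylases of the liver, had a positive difference, with a median of 0.36. All 6 lay above the median of all features, by 0.45 at their median. A shift of whole arrays moves every gene and that median almost alike, so it cannot test this. With quantile normalization and in the authors' deposited value table all 6 also lay above it, by 0.24 and 0.25 at their median. With the mean of a gene's probes, 5 of 6 were positive. Their groups did not overlap in 5 of 6 genes, and all 6 had an unadjusted p under 0.05, as did 23.8% of all features, but 1 passed the adjusted test. Cyp3a16 read 5.84, 6.27, 5.69 and 6.28 in furan livers, against 4.74, 5.33, 5.12 and 5.05 in vehicle livers. Every furan sample lay above every vehicle sample. The means were 6.02 ± 0.30 in furan livers and 5.06 ± 0.24 in vehicle livers (SD, n = 4 each), a difference of 0.96 ± 0.18 (SE, 95% interval 0.54 to 1.38, limma adjusted p = 0.0312). The difference was 1.09 in slide row 1 and 0.83 in slide row 2, and furan was higher in 4 of 4 slide columns.

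Cyp3a44, a close relative of Cyp3a16 that also predominates in females, had the larger difference but did not pass. It read 5.47, 6.23, 5.57 and 5.83 in furan livers, against 4.92, 5.34, 3.71 and 5.01 in vehicle livers. The groups did not overlap, and vehicle replicate 4 was the lowest of its group and wide of the other vehicle samples. The difference was 1.03 ± 0.35 (SE, 2.04-fold, limma adjusted p = 0.134), and 0.69 without vehicle replicate 4 (adjusted p = 0.137).

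Cyp3a11, the main adult drug-metabolising Cyp3a form of mouse liver, read 8.54, 8.45, 8.61 and 8.68 in furan livers, against 8.11, 8.27, 8.20 and 8.57 in vehicle livers. Its groups overlapped through vehicle replicate 6, and the difference was 0.28 ± 0.12 (SE, limma adjusted p = 0.202). A dimmer kept probe of Cyp3a11 gave 0.60, with an adjusted p of 0.0429 in limma fitted to every kept probe. Cyp3a13, a form of liver and intestine, averaged 3.75 ± 0.12 in furan livers and 3.38 ± 0.039 in vehicle livers (SD, n = 4 each) without overlap, with a limma adjusted p of 0.0570. The dimmer kept probe of Cyp3a13 gave 0.20 with overlapping groups, and an adjusted p of 0.417 in limma fitted to every kept probe. Cyp3a25 averaged 7.01 ± 0.13 in furan livers and 6.67 ± 0.12 in vehicle livers (SD, n = 4 each), without overlap, with a limma adjusted p of 0.0970. Cyp3a59 had a difference of 0.28 ± 0.097 (SE, limma adjusted p = 0.146), but its second kept probe gave -0.28, so its direction depends on the probe.

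**Figure D2:**
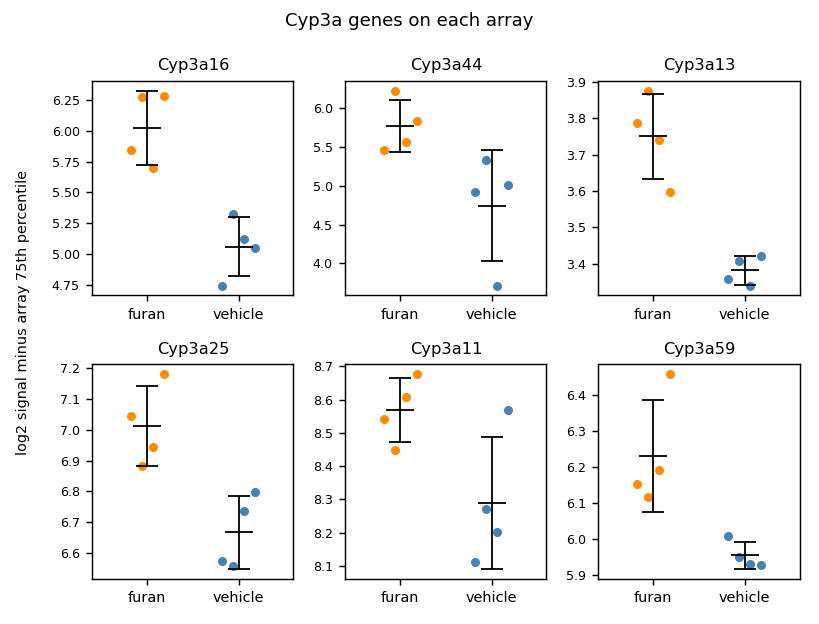
Level of each Cyp3a gene on every array (y axis, log2 processed intensity minus the array's 75th percentile, not starting at 0), furan left and vehicle right. Points are arrays and bars the mean ± SD of 4. Furan points lie above all vehicle points in 5 of the 6 genes, the exception being Cyp3a11.

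Cyp3a41a had no probe matched by accession. Its near-identical neighbour Cyp3a41b, which is not on the list and is named here after its value was seen, read 6.19, 6.57, 5.85 and 6.70 in furan livers, against 4.37, 5.45, 4.91 and 5.14 in vehicle livers. Cyp3a41b was 2.57-fold higher in furan livers without overlap (log2 difference 1.36 ± 0.27 SE, limma adjusted p = 0.0357). The Cyp3a16, Cyp3a41 and Cyp3a44 transcripts are closely related, the promoter stretches of Cyp3a41b and Cyp3a44 being 94.8% identical, and how far each probe also detects the other transcripts was not tested. These genes lie next to each other on chromosome 5, in the order Cyp3a16, Cyp3a41b, Cyp3a41a, Cyp3a44.

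**Figure D3:**
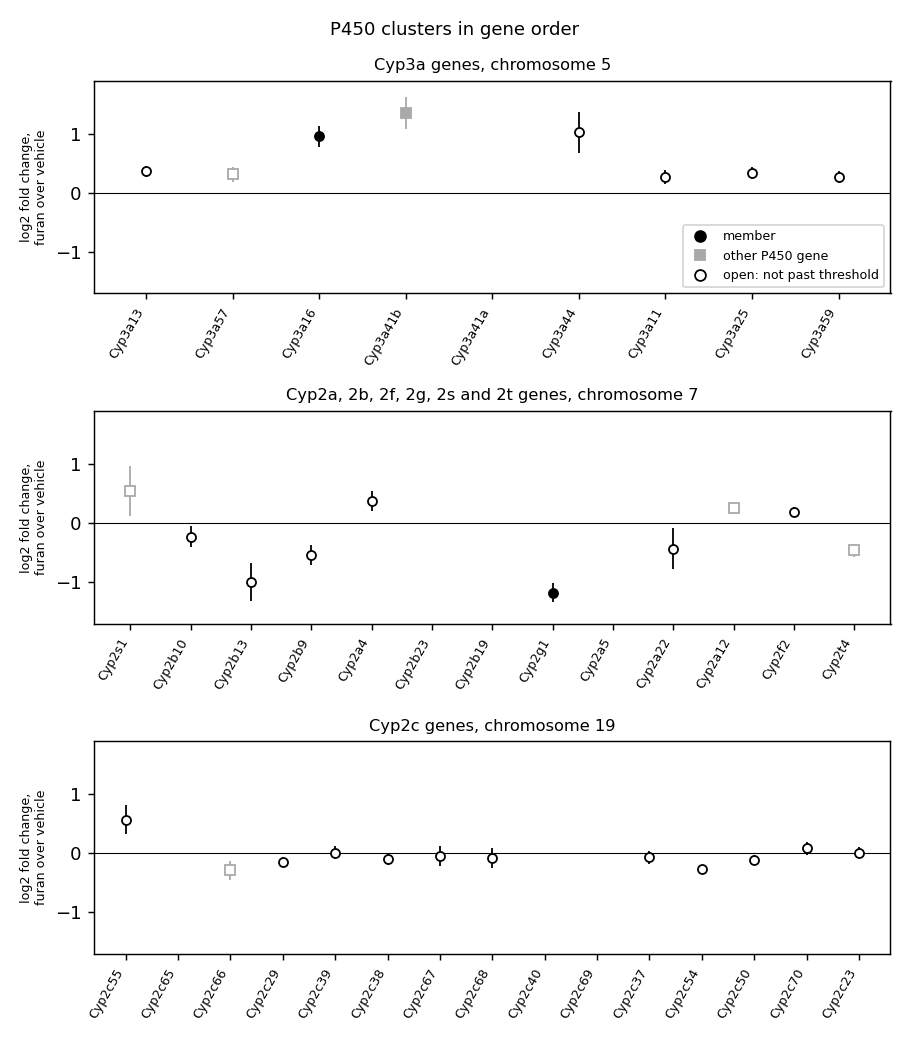
Log2 difference (furan minus vehicle, y axis, with SE bars) of the cluster genes of chromosomes 5, 7 and 19, placed by their order along the chromosome and not to distance. Filled symbols passed the adjusted threshold, open symbols did not, and squares are genes not on the list. Cyp2c44 appears under its current symbol Cyp2c23.

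The 3 tested Cyp2b genes all had a negative difference, with a median of -0.54, and 0 of 3 passed in limma. At an unadjusted p under 0.05 there were 2 of 3, beside 23.8% of all features. All 3 lay below the median of all features, also with quantile normalization. With no filter on dim probes 2 of 3 lay below it and 1 above. Cyp2b13 read 5.91, 5.04, 4.77 and 5.69 in furan livers, against 5.67, 6.43, 6.79 and 6.49 in vehicle livers. The ranges overlapped through vehicle replicate 2, the lowest of its group and the array with the highest share of spots well above background. The difference was -0.99 ± 0.32 (SE, limma adjusted p = 0.116). Cyp2b9 read 3.79, 3.45, 3.33 and 3.90 in furan livers, against 3.83, 4.23, 4.24 and 4.33 in vehicle livers, and again vehicle replicate 2 was the one that overlapped. Its difference was -0.54 ± 0.17 (SE, limma adjusted p = 0.108). With 1 array left out at a time, Cyp2b13 had -1.22 to -0.80 (limma adjusted p from 0.0632 to 0.233). Cyp2b9 had -0.65 to -0.44 (adjusted p from 0.0654 to 0.222). The lowest adjusted p of each came without vehicle replicate 2, and neither gene was called in any of these fits.

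Cyp2b10, the classic gene induced by phenobarbital through CAR, read 7.42, 7.20, 6.87 and 7.46 in furan livers, against 7.12, 7.47, 7.60 and 7.68 in vehicle livers. The groups overlapped. It averaged 7.24 ± 0.27 in furan livers and 7.47 ± 0.25 in vehicle livers (SD, n = 4 each). The difference of -0.23 had a 95% interval of -0.63 to 0.18 (limma adjusted p = 0.420). Set against the median of all features it was -0.14, and -0.325 with quantile normalization, but 0.015 with no filter on dim probes. In the authors' deposited value table, fitted in the same way, Cyp2b13 had a difference of -1.13 (limma adjusted p = 0.0470) and Cyp2b9 one of -0.61 (adjusted p = 0.0336), so both were called there, while Cyp2b10 was not.

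Cyp2g1 read 1.92, 1.52, 1.50 and 1.49 in furan livers, against 2.56, 2.99, 2.53 and 3.03 in vehicle livers. The groups were far apart, with furan replicate 41 the highest of the furan samples. The means were 1.61 ± 0.21 in furan livers and 2.78 ± 0.27 in vehicle livers (SD, n = 4 each), a difference of -1.17 ± 0.16 (SE, 95% interval -1.55 to -0.80, limma adjusted p = 0.0150). The difference was -1.31 in slide row 1 and -1.04 in slide row 2.

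Cyp2j5 read 0.035, 0.098, 0.033 and 0.060 in furan livers, against 0.56, 0.71, 0.34 and 0.62 in vehicle livers. The furan samples lay close together and all below the vehicle samples. The difference was -0.50 ± 0.099 (SE, 95% interval -0.73 to -0.27, limma adjusted p = 0.0355), and -0.54 and -0.46 in slide rows 1 and 2. Set against the median of all features it was -0.41, and -0.57 with quantile normalization and -0.26 with no filter on dim probes. Cyp2j6, the other tested member of the subfamily, had a difference of 0.13 (limma adjusted p = 0.530) and a second probe at -0.15.

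With the slide column as a block, in which each column holds 1 furan and 1 vehicle array, Cyp2g1 (adjusted p = 0.133), Cyp3a16 (adjusted p = 0.144) and Cyp2j5 (adjusted p = 0.161) lost the call, as did every other feature, while 4723 features had an unadjusted p under 0.05. With the slide row as a block Cyp2j5 had an adjusted p of 0.0553. Leaving out 1 array at a time, Cyp2g1 stayed under the threshold in 5 of 8 fits and lost the call without furan replicate 42, 43 or 44 (limma adjusted p = 0.0508, 0.0538 and 0.0513). Cyp3a16 was called only without vehicle replicate 2 (adjusted p = 0.0469), and Cyp2j5 only without vehicle replicate 4 (adjusted p = 0.0407). Without vehicle replicate 2, whose spots were most often above background, Cyp2g1 kept an adjusted p of 0.0191 and Cyp2j5 had 0.0536.

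**Figure D4:**
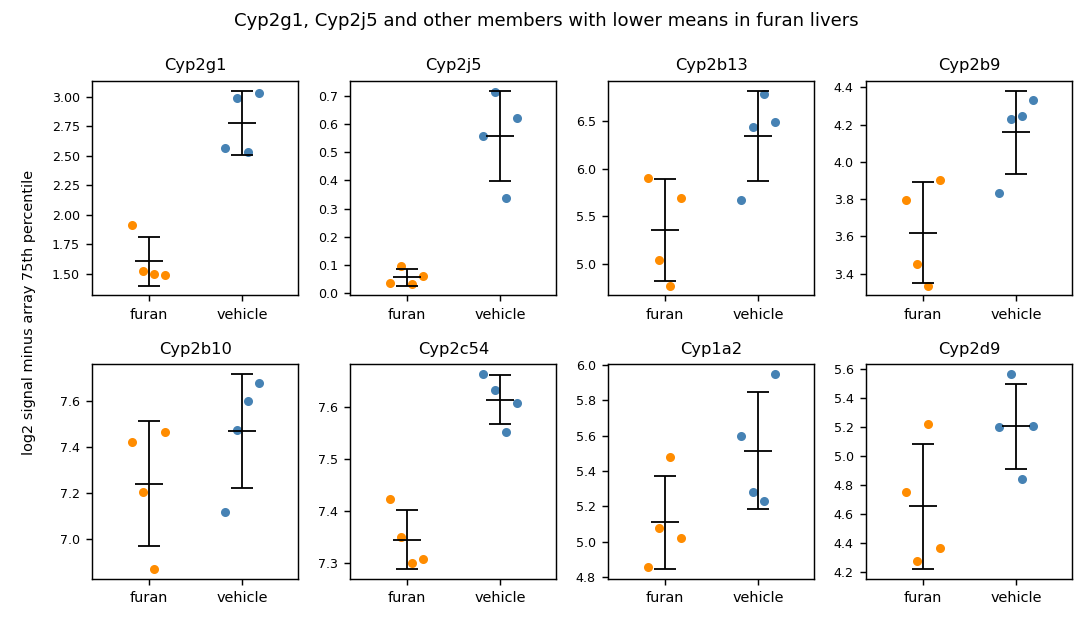
Level on every array (y axis, log2 processed intensity minus the array's 75th percentile, not starting at 0) of members with a negative difference, furan left and vehicle right. Points are arrays and bars the mean ± SD of 4. Cyp2g1 and Cyp2j5 furan points lie below all vehicle points, and the Cyp2b genes overlap.

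Of the 11 tested Cyp2c genes 0 passed in limma, and 1 higher and 1 lower had an unadjusted p under 0.05 (18.2%, beside 23.8% of all features). Their median difference was -0.067, with 4 positive and 7 negative (63.6% negative, beside 60.2% of all features). Set against the median of all features, 7 were higher and 4 lower, but with quantile normalization 1 was higher and 10 lower. This subfamily makes epoxides from arachidonic acid and oxidises many drugs. Cyp2c54 had the lowest difference, at -0.27, with furan values of 7.42, 7.35, 7.30 and 7.31 against 7.66, 7.63, 7.55 and 7.61 in vehicle livers. Its groups did not overlap and all 3 of its kept probes had a negative difference, but the limma adjusted p was 0.0857. Cyp2c29, an abundant form that phenobarbital induces, averaged 8.04 ± 0.033 in furan livers and 8.20 ± 0.11 in vehicle livers (SD, n = 4 each), also without overlap, with a limma adjusted p of 0.305. Cyp2c55 had the highest difference, at 0.58 (limma adjusted p = 0.202), and Cyp2c70, which hydroxylates bile acids in mouse liver, had 0.085 (limma adjusted p = 0.636). Cyp2c37, Cyp2c38, Cyp2c39, Cyp2c44, Cyp2c50, Cyp2c67 and Cyp2c68 lay between -0.11 and 0.013, with limma adjusted p from 0.385 to 0.948. A dimmer kept probe of Cyp2c38 gave -0.44, with an adjusted p of 0.139 in limma fitted to every kept probe. Several Cyp2c transcripts are closely related, and how far a probe detects more than 1 of them was not tested. With the authors' deposited values, 10 of 11 Cyp2c differences were negative and Cyp2c54 was called, at -0.39 (limma adjusted p = 0.0472).

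All 4 tested Cyp2d genes had a negative difference with the scanner values and with the authors' table, with medians of -0.15 and -0.28. Set against the median of all features, 3 of 4 were lower and 1 higher, and the median of the 4 was -0.062. With quantile normalization all 4 were lower, with a median of -0.22. With no filter on dim probes 1 was lower and 3 higher, with a median of 0.087. Of the 4, 0 passed in limma with scanner values, and 1 had an unadjusted p under 0.05, beside 23.8% of all features. Cyp2d9, a male-predominant testosterone hydroxylase, averaged 4.65 ± 0.43 in furan livers and 5.20 ± 0.29 in vehicle livers (SD, n = 4 each), with a limma adjusted p of 0.210. Cyp2d10, Cyp2d22 and Cyp2d26 had -0.064, -0.19 and -0.12, with limma adjusted p from 0.428 to 0.647. Cyp2u1, a fatty acid hydroxylase that is the other male-predominant member, had a difference of -0.60 ± 0.32 (SE, limma adjusted p = 0.283), but -0.36 without vehicle replicate 2, and -0.19 with the authors' deposited values.

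Of the 7 female-predominant members 5 were tested, and their differences had both signs. Cyp3a16, Cyp3a44 and Cyp2a4 had positive differences, and Cyp2b9 and Cyp2b13 negative ones. Cyp2a4, a steroid hydroxylase, averaged 9.64 ± 0.079 in furan livers and 9.26 ± 0.33 in vehicle livers (SD, n = 4 each), with a limma adjusted p of 0.213, and its second probe gave 0.71. Cyp2a22 had -0.43 (limma adjusted p = 0.438). For Cyp2a5, Cyp2c40 and Cyp2c69, as for Cyp3a41a, no probe was matched by accession. Cyp2a4 and Cyp2a5 are near-identical genes, and whether a Cyp2a4 probe also detects Cyp2a5 was not tested.

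Cyp2f2, the enzyme that activates naphthalene, read 8.46, 8.53, 8.45 and 8.42 in furan livers, against 8.31, 8.31, 8.30 and 8.17 in vehicle livers. Its groups did not overlap, yet the difference of 0.19 ± 0.077 (SE) had a limma adjusted p of 0.179. Cyp1a2, the constitutive family 1 form of hepatocytes around the central vein, read 4.86, 5.08, 5.48 and 5.02 in furan livers, against 5.60, 5.28, 5.23 and 5.95 in vehicle livers. Its groups overlapped, and the difference of -0.40 ± 0.20 (SE, limma adjusted p = 0.252) was -0.31 when set against the median of all features. Against that median it was -0.53 with quantile normalization and -0.16 with no filter on dim probes. Of the other AHR-controlled family 1 genes, Cyp1a1 was well above background on 0 furan and 0 vehicle arrays and Cyp1b1 on 1 furan and 1 vehicle array. Cyp2c65 was above background on 0 arrays of either group. These 3 genes have no fold.

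The 9 electron donors and membrane partners of P450 enzymes were all tested and 0 passed in limma, with a median difference of 0.19. At an unadjusted p under 0.05, 3 were higher (33.3%, beside 23.8% of all features). The smallest adjusted p were those of Cyb5b, the outer mitochondrial cytochrome b5 (0.31, adjusted p = 0.119), and Fdxr, ferredoxin reductase (0.26, adjusted p = 0.200), and Por had -0.25 (adjusted p = 0.430). Of 8 heme synthesis genes 0 passed in limma, with a median of -0.065 and 1 (12.5%) at an unadjusted p under 0.05. Among them Uros, uroporphyrinogen synthase, had 0.26 (adjusted p = 0.176) and Ppox, protoporphyrinogen oxidase, -0.14 (adjusted p = 0.340). Of 23 tested receptors and transcription factors of P450 genes 2 rose and 0 fell (8.70% called, beside 4.18% of all features). They were Nfe2l2, the factor of the oxidative stress response (0.74 ± 0.16 SE, limma adjusted p = 0.0429), and the liver forkhead factor Foxa1 (0.41 ± 0.084 SE, limma adjusted p = 0.0415). The list's median was 0.048. Hnf4a, a hepatocyte nuclear receptor, had 0.31 (limma adjusted p = 0.0859). The AHR, CAR and PXR genes did not pass either. Ahr had 0.23 (limma adjusted p = 0.186), Nr1i3 -0.52 (adjusted p = 0.125) and Nr1i2 -0.16 (adjusted p = 0.683). In the authors' deposited table Nr1i3 had -0.60 (limma adjusted p = 0.0377).

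Other genes known as targets of the same receptors were also measured. A place on such a list does not show which factor acted on a gene here, and this was not tested. Of 20 tested CAR and PXR targets outside families 1 to 3, 4 rose and 0 fell (20% called, beside 4.18% of all features), and the median was 0.37. At an unadjusted p under 0.05, 10 were higher and 1, the carboxylesterase Ces2a, lower, against 23.8% of all features in either direction. With the authors' deposited values limma called 7 higher and 1 lower, the lower one being Ces2a at -0.66 (adjusted p = 0.00789), and Aldh1a1, Abcc2 and Abcc4 were among the higher ones. The glutathione transferase Gsta2 had 1.92 ± 0.32 (SE, limma adjusted p = 0.0230), the secreted protein gene Tsku 1.60 ± 0.24 (SE, adjusted p = 0.0176), the epoxide hydrolase Ephx1 1.00 ± 0.11 (SE, adjusted p = 0.00603) and the glucuronosyltransferase Ugt2b34 0.46 ± 0.077 (SE, adjusted p = 0.0225). Of 5 tested AHR targets 1 rose (20% called, beside 4.18% of all features), the quinone reductase Nqo1, at 1.35 ± 0.13 (SE, limma adjusted p = 0.00501). The glucuronosyltransferase Ugt1a6a had 0.70 (limma adjusted p = 0.0879) and Tiparp, an ADP-ribosyltransferase, 0.28 (adjusted p = 0.283). Gstm3 and Gstm1, glutathione transferases of the CAR and PXR list, had 0.67 and 0.48 (adjusted p = 0.0540 and 0.0604). 

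Liver was checked by marker genes, and 12 of 13 hepatocyte markers were tested, all but Serpina1b, for which no probe was matched. Of the 12, 0 passed in limma and 1 had an unadjusted p under 0.05, beside 23.8% of all features. Their median difference was -0.090, and their summed linear level ran from 8317 to 9367 in furan livers and from 7949 to 10879 in vehicle livers. Pericentral markers, of the zone where many P450 enzymes are highest, had 0 of 9 called (1 lower at an unadjusted p under 0.05) and a median of -0.22, with sums of 462 to 505 in furan livers and 476 to 581 in vehicle livers. Periportal markers had 0 of 9 called (2 higher and 1 lower at an unadjusted p under 0.05), with sums of 1599 to 1669 in furan livers and 1416 to 2162 in vehicle livers. Sinusoidal endothelial markers also had 0 of 10 called, with a median of -0.19. Of the 10, 8 were negative and 2 positive, Lyve1 at 0.0011 and Cdh5 at 0.055. At an unadjusted p under 0.05, 3 were lower, Pecam1, Tek and Stab2. The sums of this list, 80.0 to 96.6 in furan livers, lay below 97.1 to 117 in vehicle livers. The bright Clec4g and Stab2 probes weigh most in these sums. The other lists, with overlapping sums, had 0 of 11 macrophage, 0 of 8 bile duct, 0 of 10 stellate and 0 of 11 leukocyte markers called, and at an unadjusted p under 0.05 they held 0, 0, 4 (higher) and 1 (lower). The bile duct marker Cftr was too dim to test. With the authors' deposited values limma called Pck1, which is on both the hepatocyte and the periportal list, the pericentral marker Glul and the endothelial marker Stab2 lower. Their part in the member differences was not tested.

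In the authors' deposited value table, fitted in the same way, the members had 1 higher and 5 lower calls, beside 6.69% of all features called (4.45% higher and 2.24% lower). The added lower calls were Cyp2b9, Cyp2b13 and Cyp2c54. The members' median was -0.20, beside 0.0090 over all features, and 29 of 32 members had a lower difference than with scanner values, by a median of -0.11. The sign was the same in 29 of 32 members. The table's values follow the median spot intensity on each array (correlation across probes from 0.998 to 1.00), its scale is log2, and how it was made is not stated in the labels or file headers.

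**Figure D5:**
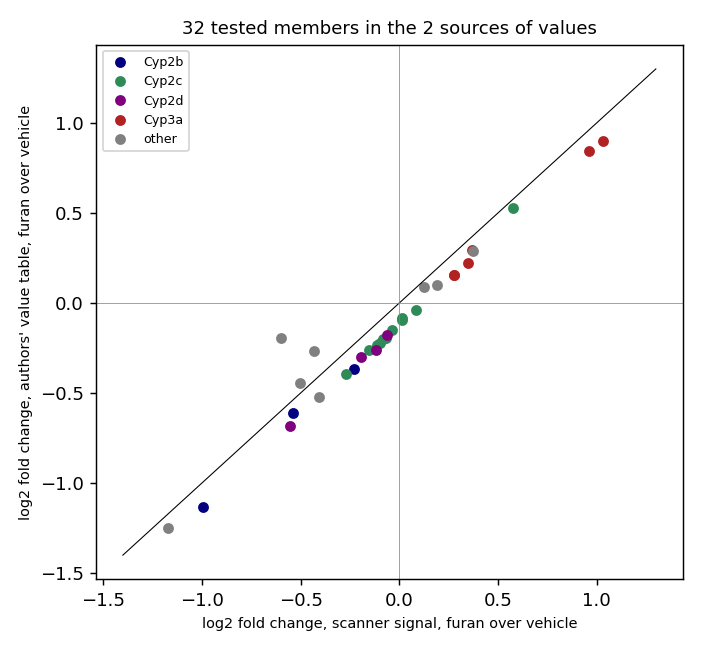
Log2 difference (furan minus vehicle) of the 32 tested members from scanner values (x axis) and from the authors' deposited value table (y axis). The line marks equality. Of the 32 points 29 lie below the line, and Cyp3a16, Cyp2g1 and Cyp2j5 pass the threshold in both.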

How the data were processed

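Liver RNA of 8 samples was hybridised to the 8 arrays of 1 slide (Agilent design 028005). Per the file headers, spot intensity came from 1 scan of 1 colour in Agilent Feature Extraction 11.0.1.1, whose processed intensity is background-subtracted and detrended. The authors' deposited value table is in log2 units, made in a way that the labels and headers leave unstated. Control spots (3671 of 62976 on each array) and spots marked as outliers (128 to 315) were dropped, and saturation affected 0 spots. The log2 processed intensity minus the array's 75th percentile was averaged over spots of a probe. A probe was kept if well above background on at least 4 of 8 arrays (33848 of 55681), and the brightest kept probe stood for its gene. RefSeq accessions gave symbols to 27235 of 28685 probes through a GRCm38.p6 table.

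Furan livers were set against vehicle livers in limma 3.58.1 (lmFit, then eBayes; R 4.3.3), with 2-sided p-values adjusted over 24921 features after Benjamini and Hochberg. The fit was tested on simulated data. A randomized block design is mentioned in the series' design text, but not which samples share a block, so group was the only term. Array values were to be given for called members and for Cyp1a1, Cyp1a2, Cyp2b10, Cyp3a11, Cyp2a5 and Cyp2f2, and from each gene list the called genes and up to 2 others with the smallest adjusted p. Array values of Cyp3a44, Cyp2b9, Cyp2b13 and Cyp2c54, the genes Por, Ahr, Nr1i2, Nr1i3, Cyp3a41b, Ces2a, Aldh1a1, Abcc2 and Abcc4, and the marker genes were added after values were seen. Promoter identity was computed with Biopython 1.88. Python 3.11.15 with pandas 2.3.3 and numpy 2.4.6 read the files, and matplotlib 3.10.9 drew the plots. The members and lists were chosen with earlier results of these data known. Alternatives were other scalings, filters, probe rules, slide blocks, weights, thresholds and the authors' table. The number of arrays limits the precision.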

Additional observations from a re-analysis of the deposited data

Results flagged for a closer look

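In 3 of the 64 groups of 4 samples over the 32 tested members, 1 sample lay far from the other 3, where chance alone flags about 1 in 20. Cyp2f2 was 8.17 in vehicle replicate 6, below the other vehicle samples at 8.30 to 8.31. Cyp2g1 was 1.92 in furan replicate 41, above the other furan samples at 1.49 to 1.52. Cyp2u1 was -1.61 in furan replicate 43, above the other furan samples at -2.59 to -2.47. The causes were not tested.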

How the results depend on the processing

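Quantile normalization, outlier spots kept and the mean of a gene's probes left the members at 1 higher and 2 lower calls, and normexp with quantile normalization gave 1 and 3. In the normexp setting 21 of 32 members lay below the median of all features. The higher count was 0 with arrays shifted to their median, no filter on dim probes, the slide column as a block or an adjusted p under 0.01, 2 with a filter on all 8 arrays or with array weights, and 3 with the trend and robust variance model. The lower count was 0 with the median shift, the slide column as a block or an adjusted p under 0.01, and 1 with no shift, no filter or the slide row as a block. It was 3 with the trend and robust variance model, 4 with array weights and 5 in the authors' table. Leaving out 1 array at a time gave 0 to 1 higher and 0 to 2 lower calls. The members' median of -0.074 was 0.43 with the median shift, 0.052 with no shift and -0.20 in the authors' table, and -0.10 to -0.053 with 1 array left out. The median shift raises all features alike, by 0.51 at their median. It turned the sign of 14 of 32 members, among them Cyp2j5 (0.0063), Cyp1a2 (0.10) and Cyp2b10 (0.28), and moved 0 of 32 across the median of all features. Quantile normalization moved 8 of 32 across it. Over all features the 1041 calls became 78 with the median shift, 261 with no shift, 163 with no filter, 1733 with the filter on all 8 arrays, 2001 with the trend and robust model, 2043 with array weights, 1668 in the authors' table, 0 with the slide column and 195 to 928 with 1 array left out. The cause was not tested. The replicate numbers of furan (41 to 44) and vehicle samples (2, 3, 4 and 6) pair no samples. The one paired fit was that with the slide column as a block (adjusted p of 0.133 for Cyp2g1, 0.144 for Cyp3a16 and 0.161 for Cyp2j5). Cyp1a1, Cyp1b1 and Cyp2c65, near background, were left out of the counts also where no filter was used.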
